A study of Homo sapiens with 6 samples.

Results

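MYC and its network of partners were examined in PANC-1 cells, a human line grown from a pancreatic ductal carcinoma, after siRNA against SUV420H2. The network was taken as 10 genes chosen by symbol (MYC, MYCN, MYCL, MAX, MXD1, MXD3, MXD4, MXI1, MNT and MLX), out of 30727 genes listed for every library. Poly(A) RNA was sequenced from 3 libraries labelled SUV420H2 knockdown and 3 labelled control, all from the same line. SUV420H2, now named KMT5C, methylates lysine 20 of histone H4. The labels give neither the siRNA used, nor what the control received, nor when cells were harvested. They also do not say whether libraries came from separate cultures, so every p-value here reflects the spread among these libraries alone, which may be technical.

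MYC proteins bind DNA as a pair with MAX, at the E-box CACGTG, and raise transcription of genes for growth, ribosome production and metabolism. The MXD proteins (MXD1, MXI1, MXD3 and MXD4) and MNT compete for MAX and for the same sites, and recruit the SIN3 and histone deacetylase corepressor. MLX, a relative of MAX, pairs with MLXIP (MondoA) and MLXIPL (ChREBP), which respond to glucose, and also with some of the MXD proteins and MNT.

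Promoters of 4 members that changed in the knockdown are shown, because the network itself reads the E-box. Those of MYCL, MXD3 and MAX, which changed too, are not shown. Sequences are RefSeq windows on GRCh38.p14, from 250 bases before to 50 bases after the annotated start, 5′ to 3′ on the gene's strand, with CACGTG in capitals. MXI1 (chr10:110207355-110207654, plus strand) and MXD1 (chr2:69914859-69915158, plus strand) had no E-box in this window. MXD4 (chr4:2262060-2262359, minus strand) and MLX (chr17:42566850-42567149, plus strand) each had 1.
MXI1: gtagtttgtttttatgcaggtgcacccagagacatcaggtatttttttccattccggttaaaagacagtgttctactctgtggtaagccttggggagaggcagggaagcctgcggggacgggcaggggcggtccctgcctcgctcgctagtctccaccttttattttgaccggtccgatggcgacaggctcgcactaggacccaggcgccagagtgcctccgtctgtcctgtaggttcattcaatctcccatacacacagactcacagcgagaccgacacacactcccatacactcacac
MXD1: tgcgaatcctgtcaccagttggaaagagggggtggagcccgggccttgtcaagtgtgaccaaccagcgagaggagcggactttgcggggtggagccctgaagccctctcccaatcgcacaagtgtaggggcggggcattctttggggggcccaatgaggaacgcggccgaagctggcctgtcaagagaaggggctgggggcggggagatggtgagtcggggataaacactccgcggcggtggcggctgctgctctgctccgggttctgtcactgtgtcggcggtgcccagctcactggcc
MXD4: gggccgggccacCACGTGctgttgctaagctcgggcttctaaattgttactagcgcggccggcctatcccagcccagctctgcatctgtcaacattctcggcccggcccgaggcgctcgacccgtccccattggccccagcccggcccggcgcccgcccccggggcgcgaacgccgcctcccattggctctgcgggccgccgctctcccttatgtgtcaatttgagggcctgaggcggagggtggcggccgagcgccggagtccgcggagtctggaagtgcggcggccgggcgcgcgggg
MLX: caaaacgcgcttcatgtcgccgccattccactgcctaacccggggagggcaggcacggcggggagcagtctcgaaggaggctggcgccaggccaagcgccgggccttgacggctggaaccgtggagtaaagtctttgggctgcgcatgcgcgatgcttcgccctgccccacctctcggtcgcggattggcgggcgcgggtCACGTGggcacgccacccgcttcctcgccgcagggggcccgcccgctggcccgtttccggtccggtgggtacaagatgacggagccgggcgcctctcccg
The E-box began 238 bases before the start in MXD4, 193 before it in MNT and 50 before it in MLX. A window was at hand for 9 members, not for MYC. Those of MYCN, MYCL, MAX and MXD3 had no CACGTG. The MAX window (chr14:65102234-65102533, minus strand) did not reach 65102695, the 5′ end of the gene range given for MAX below. CACGTG reads the same on both strands and no other motif was searched. Of 35116 promoters in the table, 2548 (7.26%) held it. A match is a string of letters and not a measured binding site, and the start used in these cells was not measured.

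Depth ran from 27007534 to 38022772 counted reads in the knockdown libraries and from 20863594 to 25931995 in the controls. Control replicate 3 stood apart: set against the other controls, its counts gave a chi-square of 11.3 and 13.6 per degree of freedom, where the values were 1.98 to 2.26 between knockdown libraries and 1.55 between control replicates 1 and 2. KMT5C, the targeted gene, averaged 6.0 ± 0.130 CPM (reads relative to library size, scaled by TMM) in the knockdown and 9.81 ± 2.72 CPM in the controls (SD, n = 3 each). Its log2 fold change was −0.72 (SE 0.163, edgeR quasi-likelihood adjusted p = 0.00227), and −0.50 without control replicate 3. All 5 markers of the duct line were detected and called, 4 higher and 1 lower (median log2 fold change 1.54), with a summed level of 5663 to 5897 CPM in the knockdown libraries and 2427 to 2969 CPM in the controls. KRT8 (1.54), KRT18 (1.57), EPCAM (2.35) and KRT7 (1.29) rose and KRT19 (−0.32) fell; KRT7 was the lowest, at 19.0 ± 1.38 CPM in the knockdown and 7.74 ± 1.35 CPM in the controls (SD, n = 3 each). Of 7 leukocyte markers only CD68, also a lysosomal gene of other cells, was tested, and it rose by 0.44 on the log2 scale; the list summed to 125.4 to 132 CPM in the knockdown libraries and 91.4 to 101.5 CPM in the controls, nearly all of it CD68, while PTPRC had 2 reads in the knockdown libraries together and 1 in the controls. Of 5 astrocyte markers only GJA1 was tested and it did not pass (−0.13); the list summed to 2.48 to 3.03 CPM in the knockdown libraries and 2.41 to 2.90 CPM in the controls, with AQP4 at 0 in every library and GFAP at 13 reads in the knockdown libraries together and 0 in the controls. Of 7 neuron markers 5 were tested, 2 higher and 2 lower, and their summed level was 95.3 to 100.4 CPM in the knockdown libraries and 182 to 227 CPM in the controls, most of it TUBB3 (90.8 ± 2.82 CPM in the knockdown and 188 ± 23.3 CPM in the controls). The part of all these markers in the results was not tested. In bulk RNA, fewer cells expressing a gene and less RNA per cell cannot be told apart.

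The network moved in both directions. MYC, MXI1, MXD4, MXD3 and MLX fell in the knockdown, MYCL, MXD1 and MAX rose, MNT did not pass the test and MYCN was too low to test. Of the 9 members that passed the filter on low counts, 8 (88.9%) were called at an adjusted p under 0.05, 3 higher and 5 lower. Over all 15190 genes tested, 67.3% were called, 33.1% higher and 34.2% lower, and the share of members called is to be read against that. All 9 passed the filter in every library of both groups, at 0.378 CPM or more. The groups did not overlap for 8 of the 9, and for 71.3% of all genes tested. The median log2 fold change was −0.21 over the 9 members and −0.01 over all genes. The exact permutation test over libraries gave p = 0.1 for each of the 8 called members, the smallest that 3 against 3 allows.

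**Figure D1:**
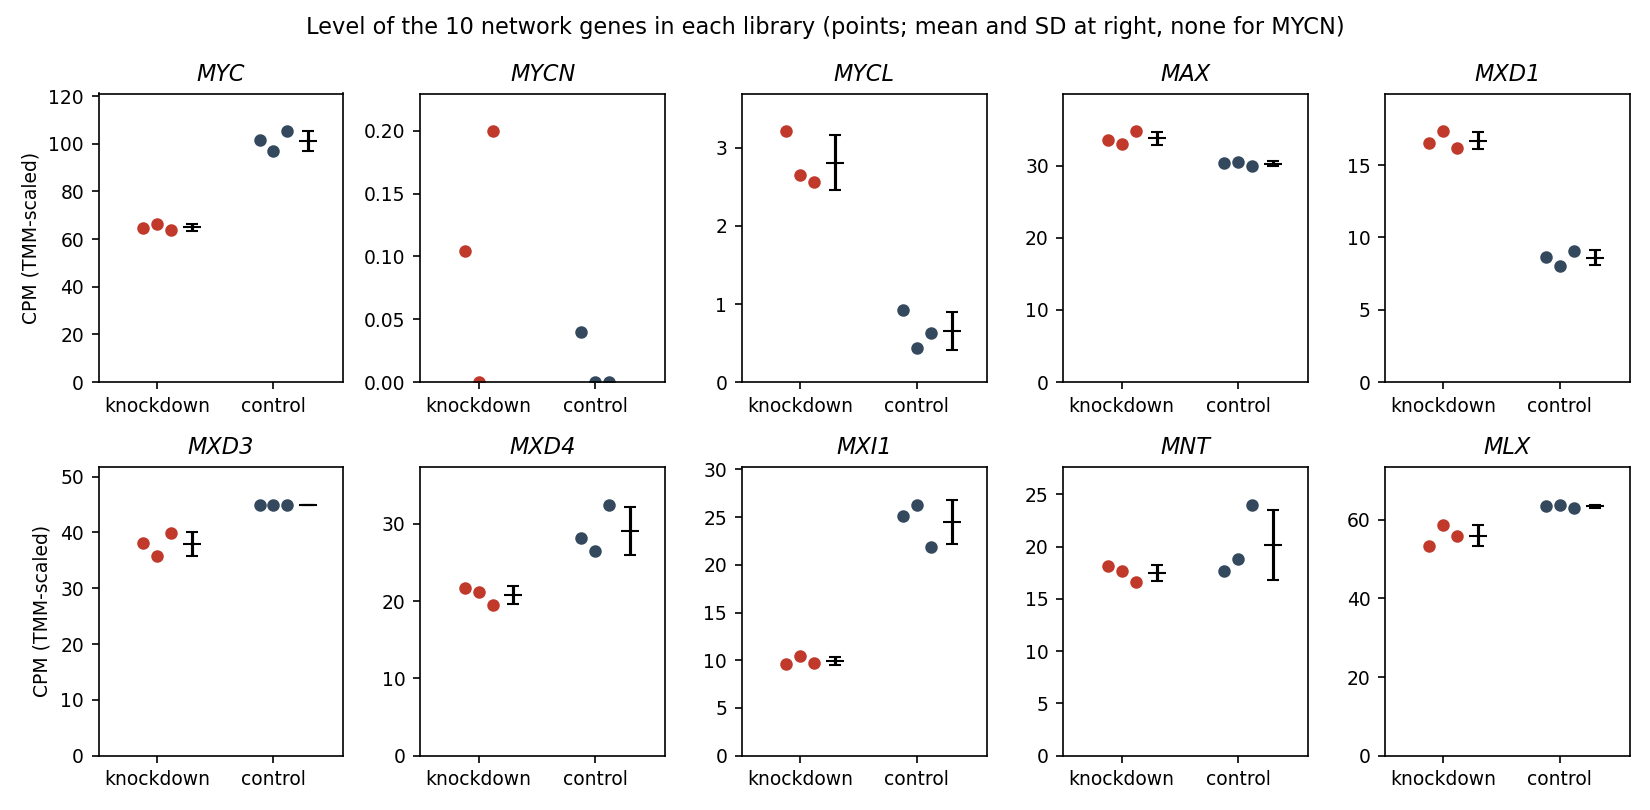
Level of each network gene in CPM (TMM-scaled, linear axis from 0, a scale of its own per gene) in 3 knockdown and 3 control libraries. Mean and SD are at the right of each group, with none drawn for MYCN. All MYC points of the knockdown lie at or below 66.4 CPM and all control points at or above 96.9 CPM, while MNT overlaps between the groups.

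Among the activators, MYC, the broadly expressed member that drives growth, was lower in every knockdown library. MYC (gene ID 4609; chromosome 8 of GRCh38, 127735434 to 127742951) had 64.7, 66.4 and 63.7 CPM in the knockdown libraries, against 101.5, 96.9 and 105.3 CPM in the controls. The groups lay far apart compared with their spread: the means were 64.9 ± 1.36 CPM in the knockdown and 101.2 ± 4.22 CPM in the controls (SD, n = 3 each). MYC fell to 64.1% of the control level, a log2 fold change of −0.64 (SE 0.0474, 95% interval −0.75 to −0.54, edgeR adjusted p = 4.63e-07). A change of this size was larger than that of 72.1% of all genes tested. Tested against a 1.5-fold change, the fall of MYC was not called (edgeR glmTreat adjusted p = 0.185), whereas 3 of the 9 members (MYCL, MXD1 and MXI1) were, beside 19.7% of all genes.

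MYCL, a family member found mainly in neuroendocrine and some epithelial cells, went the other way from a low level. MYCL (gene ID 4610; chromosome 1, 39895428 to 39901917) had 3.21, 2.65 and 2.56 CPM in the knockdown libraries, from 123, 72 and 77 reads. The controls had 0.919, 0.434 and 0.627 CPM, from 23, 9 and 16 reads. Every knockdown library was above every control, and MYCL rose 4.19-fold (log2 fold change 2.07, SE 0.221, edgeR adjusted p = 8.90e-06), more than 97.1% of all genes moved in either direction. Per length it stayed far below MYC: 0.556 ± 0.0694 RPKM in the knockdown and 0.129 ± 0.0481 RPKM in the controls (deposited values, SD, n = 3 each). MYCL made up 2.02% ± 0.251 of the summed RPKM of the MYC family in the knockdown and 0.310% ± 0.111 in the controls.

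MYCN, the member of neural and embryonic tissues, was nearly absent. MYCN (gene ID 4613; chromosome 2, 15940550 to 15947004) had 4, 0 and 6 reads in the knockdown libraries and 1, 0 and 0 reads in the controls. The depth-corrected ratio of the summed reads was 7.59 with an exact 95% interval of 1.08 to 329, which covers counting error only. A library with no read allows up to 3 reads, or 0.111 CPM in knockdown replicate 2 and 0.144 CPM in control replicate 2. Since 1 knockdown library had no read, the groups overlapped. MYCN was under the filter on low counts in every library, and for that reason it was left out of the edgeR test. Its value in the alternative with no filter was not reported here.

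MAX, the shared partner with which MYC and MXD proteins bind DNA, rose slightly. MAX (gene ID 4149; chromosome 14, 65006101 to 65102695) had 33.5, 33.0 and 34.8 CPM in the knockdown libraries, against 30.4, 30.6 and 29.9 CPM in the controls. The groups did not overlap, but the rise was 1.12-fold (log2 fold change 0.16, SE 0.0539, edgeR adjusted p = 0.0232). The call ended without knockdown replicate 1 (adjusted p = 0.0652), knockdown replicate 3 (0.103) or control replicate 1 (0.0577) and with no filter on low counts (0.0779; range over all alternatives 0.0124 to 1). The RPKM of MYC over that of MAX was 2.47 ± 0.115 in the knockdown and 4.29 ± 0.223 in the controls (SD, n = 3 each, exact permutation p = 0.1, the smallest possible), with no overlap between groups.

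Of the repressors, MXI1 (also called MXD2) showed the largest fall of the network and MXD1 the only rise among the MXD genes. MXI1 (gene ID 4601; chromosome 10, 110207605 to 110287365) had 9.64, 10.4 and 9.72 CPM in the knockdown libraries, against 25.2, 26.3 and 21.9 CPM in the controls. The gap between the groups was wider than the spread within either. MXI1 fell to 40.6% of the control level (log2 fold change −1.30, SE 0.0842, edgeR adjusted p = 1.64e-07), a larger change than that of 91.8% of all genes tested, and passed against a 1.5-fold change. In human cells MXI1 is known as a gene induced by hypoxia-inducible factors. Its transcripts begin at more than 1 promoter, and gene counts do not tell them apart.

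MXD1, the founding MXD gene, known for rising as epithelial and myeloid cells differentiate, moved against MXI1. MXD1 (gene ID 4084; chromosome 2, 69915109 to 69942945) had 16.5, 17.3 and 16.2 CPM in the knockdown libraries, against 8.67, 8.05 and 9.09 CPM in the controls. It rose 1.93-fold with no overlap (log2 fold change 0.95, SE 0.0770, edgeR adjusted p = 9.44e-07). It also passed against a 1.5-fold change (edgeR glmTreat adjusted p = 0.000529). The order of these relatives turned over between the groups: the RPKM of MXI1 over that of MXD1 was 0.871 ± 0.0151 in the knockdown libraries and 4.19 ± 0.635 in the controls (SD, n = 3 each). All 3 knockdown ratios were below 1 and all 3 control ratios above 3.5. MXD1 shares 3.73% of its annotated exon bases with SNRNP27 on the same strand, which rose as well (0.51, SE 0.0577, edgeR adjusted p = 1.36e-05). The part of such shared bases in the result was not tested.

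MXD4 and MXD3 fell by less. MXD4 (gene ID 10608; chromosome 4, 2247432 to 2262109) had 21.7, 21.2 and 19.4 CPM in the knockdown libraries, against 28.2, 26.5 and 32.5 CPM in the controls, a fall to 71.4% (log2 fold change −0.49, SE 0.0826, edgeR adjusted p = 0.000324). Like MXD1, it is known mainly from cells that leave the cycle. MXD3 (gene ID 83463; chromosome 5, 177305499 to 177312752), known from proliferating cells in S phase, had 38.1, 35.7 and 39.9 CPM in the knockdown libraries, against 45.0, 45.0 and 45.0 CPM in the controls. Its groups did not overlap and it fell to 84.3% (log2 fold change −0.25, SE 0.0564, edgeR adjusted p = 0.0025). By annotation 22.5% of its exon bases also lie in PRELID1 on the other strand and 18.0% in RAB24 on its own, and whether the counting used strand is unknown, which makes its value uncertain. PRELID1 stood at −0.16 (SE 0.0819, edgeR adjusted p = 0.105) and RAB24 at −0.14 (SE 0.0749, edgeR adjusted p = 0.121).

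MNT, the repressor present in both dividing and resting cells, did not pass. MNT (gene ID 4335; chromosome 17, 2384073 to 2401060) had 18.1, 17.7 and 16.6 CPM in the knockdown libraries, against 17.7, 18.8 and 24.0 CPM in the controls. The groups overlapped, and only control replicate 3 stood well above the rest. The log2 fold change was −0.21 (95% interval −0.44 to 0.02, edgeR adjusted p = 0.102), −0.06 without control replicate 3, and called at −0.29 without control replicate 1 (adjusted p = 0.0291) and with no filter on low counts (0.0261; range over all alternatives 0.0261 to 1). The interval leaves room for a fall of up to 0.44 on the log2 scale. By annotation 12.2% of the exon bases of MNT lie in an antisense gene on the other strand. Antisense genes also cover 4.46% of these bases in MYCL, 4.15% in MAX and 4.45% in MXI1. The part of these shared bases in the results was not tested.

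MLX, per length the most abundant network gene after MYC, fell slightly. MLX (gene ID 6945; chromosome 17, 42567100 to 42573203) had 53.4, 58.8 and 55.9 CPM in the knockdown libraries, against 63.5, 63.9 and 62.9 CPM in the controls. All knockdown values were lower, at 88.2% of the control level (log2 fold change −0.18, SE 0.0504, edgeR adjusted p = 0.00809). The call ended without knockdown replicate 1 (adjusted p = 0.0583; range over all alternatives 0.000324 to 1). By annotation 18.1% of its exon bases lie in PSMC3IP on the other strand, which fell by a like amount (−0.22, SE 0.0645, edgeR adjusted p = 0.00988), and reads of both genes may not be told apart.

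**Figure D2:**
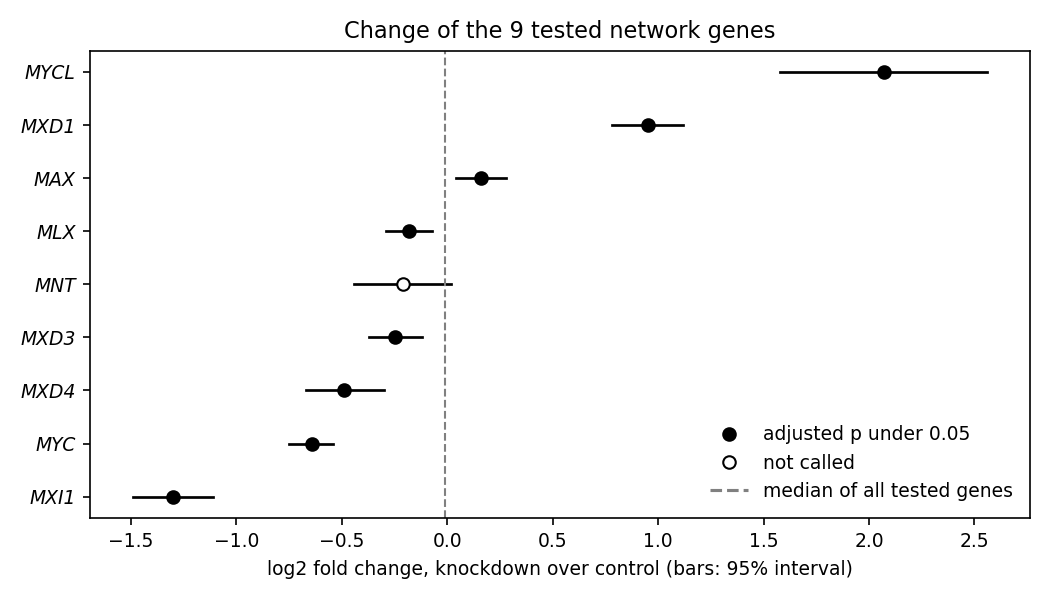
Log2 fold change (knockdown over control, horizontal axis) of the 9 tested network genes with 95% intervals; filled points were called in edgeR at an adjusted p under 0.05. MYCL (2.07) and MXD1 (0.95) lie at the top, MXI1 (−1.30) and MYC (−0.64) at the bottom, and the interval of MNT spans 0.

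Per length, MYC was the most abundant member in both groups, at 26.9 ± 0.550 RPKM in the knockdown and 41.4 ± 1.45 RPKM in the controls (deposited values, SD, n = 3 each). In the knockdown MLX (21.4 ± 1.03), MXD3 (11.8 ± 0.663) and MAX (10.9 ± 0.300) followed, then MXD4, MNT, MXD1, MXI1, MYCL and MYCN; of all neighbours in that order, only MXD3 and MAX overlapped. In the controls MLX (24.0 ± 0.362), MXD3 (13.8 ± 0.109) and MAX (9.66 ± 0.177) came next, then MXD4, MXI1, MNT, MXD1, MYCL and MYCN, and only MXD4 and MXI1 overlapped. MXI1 therefore stood at place 8 in the knockdown and at place 6 in the controls.

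The summed RPKM of the MYC family and of the repressors were both lower in the knockdown, that of the MYC family by more. MYC, MYCN and MYCL together had 27.4, 28.0 and 27.0 RPKM in the knockdown libraries, against 41.9, 39.9 and 42.8 RPKM in the controls. MXD1, MXD3, MXD4, MXI1 and MNT together had 26.2, 25.7 and 26.0 RPKM in the knockdown libraries, against 32.3, 32.3 and 33.4 RPKM in the controls. The ratio of repressors to MYC family was 0.944 ± 0.0250 in the knockdown and 0.787 ± 0.0197 in the controls (SD, n = 3 each), 1.20-fold higher with no overlap (exact two-sided permutation p = 0.1, the smallest possible). MXI1 made up 9.79% ± 0.541 of the repressor sum in the knockdown and 19.0% ± 2.27 in the controls, and MXD1 11.2% ± 0.493 in the knockdown and 4.54% ± 0.191 in the controls. MXD3, whose value is uncertain because of its exon overlaps, was the largest part, at 45.2% ± 2.32 in the knockdown and 42.2% ± 1.13 in the controls. The ratio without MXD3 was not computed. These are RNA levels, and protein was not measured.

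**Figure D3:**
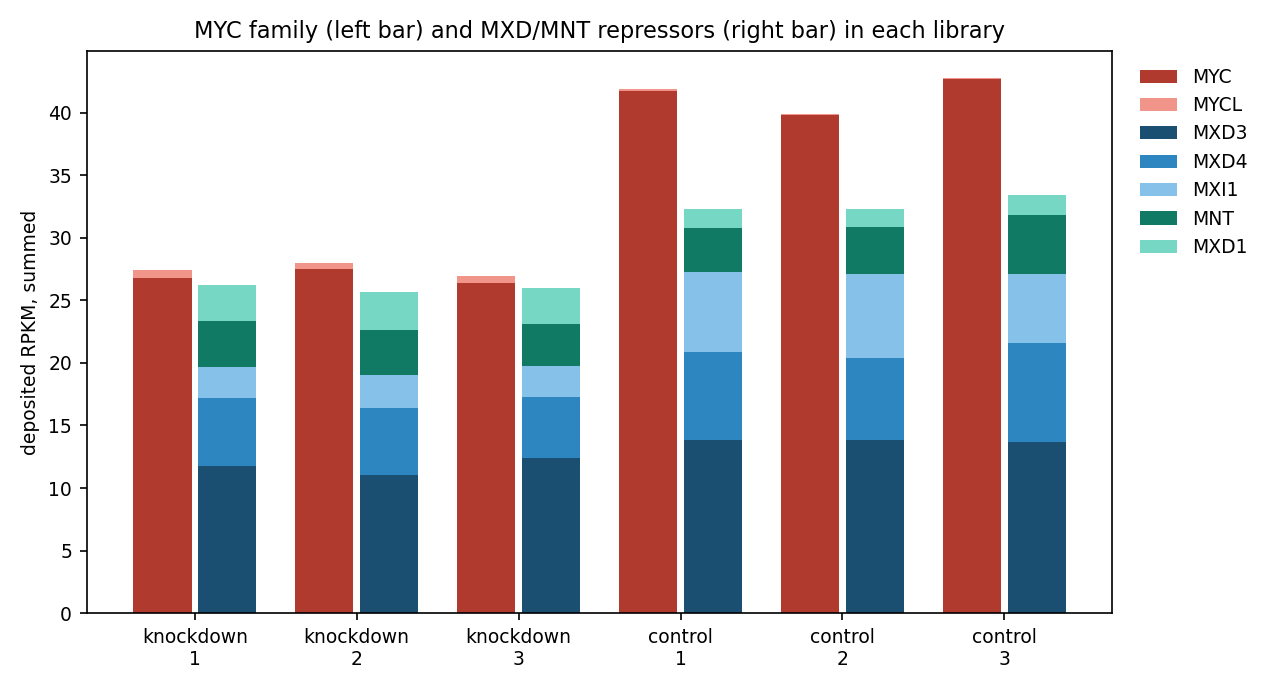
Deposited RPKM summed over the MYC family (left bar) and over the repressors (right bar) in each library; MYCN, at most 0.0645 RPKM, is left out and MYCL is a thin band at the top of the left bars. The left bars stand between 27.0 and 28.0 in the knockdown libraries and between 39.9 and 42.8 in the controls.

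The genes whose profile was nearest to that of MYC were ARAF, ACAD10 and GNAI2, by Euclidean distance of 0.0496, 0.0568 and 0.0579 between centred log2 CPM over the 6 libraries, among 10249 genes. They are a description of likeness over libraries that fall into 2 groups. ARAF had a log2 fold change of −0.65, ACAD10 of −0.67 and GNAI2 of −0.63.

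MLX has 2 glucose-responsive partners, and both were lower. MLXIP, which encodes MondoA, had 54.3, 54.6 and 50.6 CPM in the knockdown libraries, against 123.4, 124.9 and 132.1 CPM in the controls, a fall to 41.9% (log2 fold change −1.25, SE 0.0502, edgeR adjusted p = 4.82e-09). MLXIPL, which encodes ChREBP, fell by 0.50 on the log2 scale (SE 0.126, edgeR adjusted p = 0.00426) from a low level. MGA, a large protein that joins MAX to a Polycomb complex, had 84.4 ± 1.37 CPM in the knockdown and 78.4 ± 9.66 CPM in the controls and did not pass (0.11, SE 0.0758, edgeR adjusted p = 0.229).

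Of 7 genes listed as targets of the Mondo proteins with MLX, 4 (57.1%) fell and 3 (42.9%) rose (median −0.29), beside 34.2% and 33.1% of all genes. TXNIP, which limits glucose uptake and is the best known target of MondoA, had 4.73, 4.71 and 5.56 CPM in the knockdown libraries, against 21.3, 23.4 and 21.2 CPM in the controls. It fell to 22.8% (log2 fold change −2.13, SE 0.0894, edgeR adjusted p = 6.27e-09), with the groups far apart. FASN (−0.72) and ACACA (−0.71), enzymes of fatty acid synthesis, fell too, while PKLR, a pyruvate kinase (0.93), and KLF10, a transcription factor (0.20), rose. ARRDC4, an arrestin-like protein (−0.29, edgeR adjusted p = 0.0279; up to 0.13 over the alternatives other than glmTreat), and ACACB (0.31, edgeR adjusted p = 0.0262; up to 0.109) lost their calls in some settings. FASN and ACACA are also targets of SREBF1, which fell in the same libraries (log2 fold change −1.30), and its part in their fall was not tested.

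More genes of a list that MYC is known to activate fell than rose. Of these 62 genes of growth, nucleolus and metabolism, all tested, 34 (54.8%) fell, 13 (21.0%) rose and 15 did not pass, beside 34.2% lower and 33.1% higher over all genes. Their median log2 fold change was −0.14, beside −0.01 over all genes. ODC1, the first enzyme of polyamine synthesis, had 278.1, 271.1 and 275.5 CPM in the knockdown libraries, against 462.8, 464.2 and 444.2 CPM in the controls (log2 fold change −0.73, SE 0.0392, edgeR adjusted p = 3.80e-08). FBL, the nucleolar RNA methyltransferase fibrillarin, fell by 0.59 on the log2 scale (SE 0.0438) and IPO4, a nuclear import receptor, by 1.02 (SE 0.0623). Other members rose: HK2, a hexokinase, by 0.89 (SE 0.0662) and TMEM97, a membrane protein of sterol metabolism, by 0.57 (SE 0.0417). NCL, the abundant nucleolar protein nucleolin, had 1195 ± 26.8 CPM in the knockdown and 1313 ± 47.8 CPM in the controls (−0.14, edgeR adjusted p = 0.0142), a call that ended without knockdown replicate 1 or 3 or control replicate 1 or 2 (adjusted p up to 0.0832). The count of falls ran from 28 to 37 over the other scalings, filters and tests and when 1 library was left out. Against a 1.5-fold change, 5 of the 62 were lower and 1 higher.

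Of 11 genes that MYC is known to repress, 8 were tested, and 4 (50%) rose and 2 (25%) fell (median 0.24), beside 33.1% and 34.2% of all genes. CDKN1A, the inhibitor p21, rose by 0.42 (SE 0.0524, edgeR adjusted p = 3.27e-05) and the stress gene GADD45A by 0.46 (SE 0.0548). CEBPA, a differentiation factor, rose by 1.69 from 28 reads in the controls together, and PDGFRB, a growth factor receptor, by 1.94. CDKN1B, the inhibitor p27 (−0.25), and GADD45B (−0.45) fell. CDKN1C (−0.05) and NDRG1 (0.06) did not pass. CDKN2B had no read in any library, and NDRG2 and GAS1 were under the filter. PDGFRB is also a marker of fibroblasts; the other markers of fibroblasts and endothelium (DCN, LUM, PECAM1, CDH5 and VWF) were under the filter, with 1, 7, 2, 12 and 13 reads in the knockdown libraries together and 0, 2, 1, 3 and 7 in the controls.

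Of 16 genes of the SIN3 and histone deacetylase corepressor, which MXD proteins and MNT recruit, 6 (37.5%) rose and 7 (43.8%) fell (median −0.05), beside 33.1% higher and 34.2% lower over all genes. In total 81.2% of the list was called, beside 67.3% of all genes. The paralogs of its scaffold moved apart: SIN3A fell by 0.36 on the log2 scale (SE 0.0442, edgeR adjusted p = 2.83e-05), with 126.1 ± 3.95 CPM in the knockdown and 161.6 ± 4.91 CPM in the controls. SIN3B rose by 0.70 (SE 0.0681, edgeR adjusted p = 4.38e-06), with 67.9 ± 2.43 CPM in the knockdown and 41.9 ± 4.10 CPM in the controls. ING1, a reader of histone methylation in the complex, rose by 0.75 and the histone chaperone RBBP7 by 0.40, and the deacetylase HDAC2 (0.04) did not pass. The count of falls was 4 in place of 7 without knockdown replicate 1 or 3 or control replicate 1, and also with library-size scaling and in DESeq2.

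Among 16 coactivators and cofactors of MYC, 4 (25%) rose and 5 (31.2%) fell (median −0.07), beside 33.1% and 34.2% of all genes. PAF1, a subunit of an elongation complex, fell by 0.76 on the log2 scale (SE 0.0401), the ATPase RUVBL1 by 0.57 (SE 0.0412) and the acetyltransferase KAT2A by 0.40 (SE 0.0579), while the acetyltransferase KAT5 rose by 0.25 (SE 0.0442). HCFC1 (−0.03) did not pass. The count of rises was 2 without knockdown replicate 1 or control replicate 1 and 1 without knockdown replicate 2 or 3.

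Of 16 genes that set the stability of the MYC protein, 5 (31.2%) rose and 4 (25%) fell (median 0.05), beside 33.1% and 34.2% of all genes. FBXW7, the ubiquitin ligase subunit that marks MYC for breakdown, had 35.1, 38.4 and 38.4 CPM in the knockdown libraries, against 14.5, 14.6 and 13.5 CPM in the controls. USP37, a deubiquitinase, rose by 0.38, and the kinases AURKA, which shields MYCN from FBXW7, by 0.28 and PLK1 by 0.24. The ubiquitin ligases STUB1 (−1.16, SE 0.0854) and TRIM32 (−0.72, SE 0.0607) fell, and HUWE1 (0.01) did not pass.

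Of 8 regulators of MYC RNA, 5 (62.5%) rose, 2 (25%) fell and FUBP1 (0.07) did not pass (median 0.15), beside 33.1% of all genes higher and 34.2% lower. IGF2BP1, which shields the coding region of MYC mRNA from decay, rose by 0.56 (SE 0.0393, edgeR adjusted p = 3.01e-07) and its relative IGF2BP2 by 0.52 (SE 0.0445). IGF2BP3 rose by 0.13 (edgeR adjusted p = 0.0411; up to 0.143 over the alternatives other than glmTreat), a call lost when any knockdown replicate or control replicate 1 was left out. CNBP rose by 0.24 and ELAVL1 by 0.16, and HNRNPK fell by 0.23; HNRNPK and CBX3 have processed pseudogenes that can take their reads. PVT1, the noncoding RNA gene next to MYC, had 15.7 ± 1.19 CPM in the knockdown and 20.9 ± 1.24 CPM in the controls and fell by 0.41 on the log2 scale (SE 0.0780, edgeR adjusted p = 0.000768).

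Of 11 genes of the Polycomb complex that MGA and MAX join, 6 (54.5%) rose and 2 (18.2%) fell (median 0.38), beside 33.1% of all genes higher and 34.2% lower. The ubiquitin ligases RING1 (0.59, SE 0.0603) and RNF2 (0.43, SE 0.0517), the subunit PCGF6 that defines the complex (0.54, SE 0.0933), YAF2 (0.40), RYBP (0.39) and the DNA-binding factor E2F6 (0.38) rose. CBX3, a reader of methylated histone H3, fell by 0.28 and WDR5 by 0.12. The fall of WDR5 (edgeR adjusted p = 0.0345; up to 0.119 over the alternatives other than glmTreat) was lost in 10 of these, among them leaving out any library but control replicate 3, which left CBX3 as the only fall of the list. L3MBTL2 (0.04), TFDP1 (−0.07) and TFDP2 (0.07) did not pass.

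Of 8 tested factors that bind E-boxes through the same kind of domain, 4 (50%) fell and 2 (25%) rose (median −0.15), a total of 75% called beside 67.3% of all genes. SREBF1, the regulator of fatty acid synthesis, had 85.4, 82.3 and 78.5 CPM in the knockdown libraries, against 192.5, 178.6 and 234.0 CPM in the controls (log2 fold change −1.30, SE 0.0858, edgeR adjusted p = 1.92e-07). MITF rose by 1.18 (SE 0.0757) and TFE3 by 0.16 (SE 0.0432), both of the family that controls lysosomes, while TFEB of the same family fell by 0.57 (SE 0.141). TFAP4, itself a known MYC target, fell by 0.54 (SE 0.0847) and USF2 by 0.26 (SE 0.0721). USF1 (−0.01) and SREBF2 (−0.04) did not pass, and TFEC was under the filter.

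**Figure D4:**
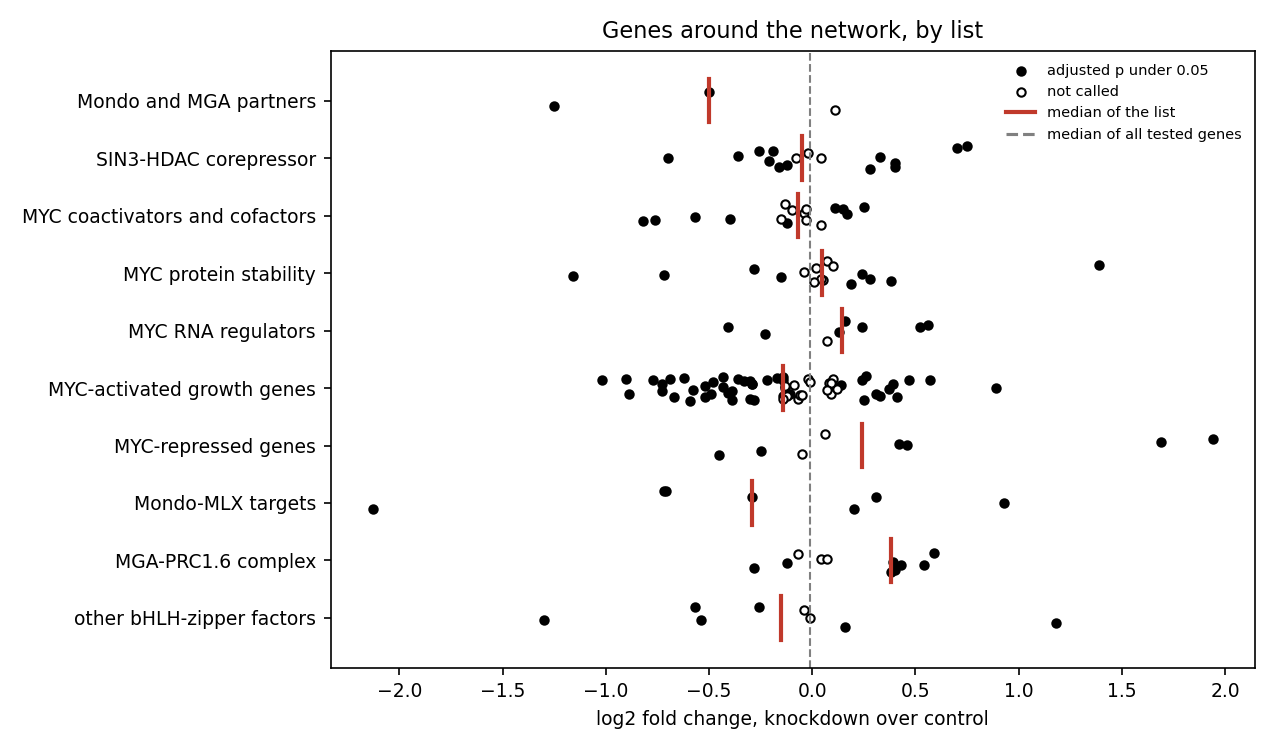
Log2 fold change (knockdown over control, horizontal axis) of each tested gene in 10 lists around the network, with the list median as a vertical bar; filled points were called in edgeR at an adjusted p under 0.05. The lists spread to both sides of the all-gene median of −0.01, with TXNIP (−2.13) farthest left and PDGFRB (1.94) farthest right.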

How the data were processed

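RNA sequencing of poly(A) RNA was analysed for 3 knockdown and 3 control libraries, grouped by the siRNA label. No replicate number, batch or date is labelled. The RNA extraction protocol in the labels speaks of neurons, microglia and astrocytes, none of which are among the samples, so how RNA was extracted from these PANC-1 cells is uncertain. Reads were aligned with GSNAP to GRCh38, per the submitters' processing notes; per the file headers, the deposited values are the count of reads aligned uniquely to each gene model and an RPKM adjusted by the authors with a size factor. For the GSNAP version, annotation release and strand setting: not given in the sources used here. Count over RPKM was a library constant times a gene constant, to within 9.88e-15 on the log2 scale in 11875 genes.

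Gene IDs were matched to RefSeq symbols and coordinates (GRCh38.p14) for 27814 of 30727 genes; exon overlaps came from GENCODE 29. Deposited counts were filtered with filterByExpr (minimum count 10, total 15), scaled by TMM (factors 0.985 to 1.01) and tested with edgeR 4.0.16 (glmQLFit, glmQLFTest, two-sided) in R 4.3.3, with Benjamini-Hochberg adjustment over all 15190 genes and a threshold of 0.05. The test was tried first on simulated data, with far fewer changed genes than were called here and a common spread for all genes. No pair of libraries was identical, and all replicate pairs differed by more than sampling noise. Intervals and floors from reads cover counting error only.

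The members, lists and tests were chosen with earlier results of these data known. All members could be named; so could every gene of lists of up to 11 genes, and of longer lists the 5 called genes with the smallest p and no overlap and the 2 most abundant, and the 3 genes nearest MYC. Some genes of the lists are counted but not reported here by name. PRELID1, RAB24, PSMC3IP and SNRNP27 were added for their overlap with members. Alternatives were DESeq2 1.42.0 size factors and Wald test, upper-quartile and library-size scaling, no filter, mean log2 CPM of at least 1, limma-voom (limma 3.58.1), glmTreat at 1.5-fold and leaving out each library.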

Additional observations from a re-analysis of the deposited data

How the results depend on the processing

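The log2 fold changes of KMT5C and of the tested members and the log2 ratio kept their sign under the alternatives run. The rest of the 35 results were counts of calls, which could move but by their nature could not reverse. Of 483 recomputed values, 429 kept their direction and call or stayed within the allowed range. That range was up to 1.5-fold for a count, or no call in both settings. For the log2 ratio it was less than the larger of the group SDs. No paired analysis was possible because the labels give no replicate numbers. The cause was not tested where a value changed, except that glmTreat asks for more than a 1.5-fold change by construction. Under glmTreat, calls ended for KMT5C (−0.72), MYC (−0.64), MAX (0.16), MXD3 (−0.25), MXD4 (−0.49) and MLX (−0.18), while MYCL, MXD1 and MXI1 kept theirs; 1 member was lower in place of 5, and 1606 genes were higher and 1392 lower in place of 5028 and 5188.

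With no filter on low counts MAX (0.15) lost its call and MNT (−0.21) gained one. MYCL was too low to be tested at a mean log2 CPM of at least 1. Members called higher numbered 2 in that setting, in place of 3. Leaving out 1 library gave MAX 0.14 to 0.17, MLX −0.22 to −0.15 and MNT −0.29 to −0.06. For the lists, leaving out 1 library gave 4 to 8 SIN3-HDAC genes lower, 1 to 4 MYC coactivators higher and 1 to 3 genes of the MGA complex lower. SIN3-HDAC genes lower numbered 4 with library-size scaling and in DESeq2. Genes of the MGA complex lower numbered 1 with DESeq2 size factors, library-size scaling, no filter, mean log2 CPM of at least 1 and DESeq2. Under glmTreat the lists had, higher and lower, 0 and 0 for SIN3-HDAC, 0 and 2 for coactivators, 1 and 2 for MYC stability, 0 and 0 for MYC RNA regulators, 1 and 5 for MYC-activated genes, 2 and 0 for MYC-repressed genes, 0 and 2 for Mondo-MLX targets, 0 and 0 for the MGA complex, 1 and 1 for other E-box factors, and 1 lower for the partners of MLX and MAX. The log2 of the repressor to MYC family ratio (knockdown minus control, 0.26) stayed between 0.24 and 0.29. MXD3, the largest part of the repressor sum, was kept in all of these alternatives.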
